A study of Physcomitrium patens with 6 samples.

Results

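The genes described here lost transcript during the first 30 minutes of abscisic acid (ABA) treatment in protonema of the moss Physcomitrium patens and had regained at least part of it by 60 minutes. They were selected by their measured levels in CPM, read counts scaled to library size and then by TMM (trimmed mean of M values, a correction for library composition). A gene belonged to the set if its mean was at least 2 CPM at 0 minutes, its 30 minute mean at most 0.6 of its 0 minute mean and at most 0.6 of its 60 minute mean, and both of its 30 minute libraries lay below the other 4. These conditions held for 121 of the 32926 gene IDs, or 121 of the 16719 IDs with a mean of at least 2 CPM at 0 minutes. All 121 were among the 18949 genes tested.

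The groups were protonema at 0 minutes, after 30 minutes of ABA and after 60 minutes of ABA, with 2 biological replicates each. In every group, 10-day-old tissue had been sonicated and grown for 3 days in shaken liquid medium. The series design gives ABA as 10 µM and the treatment protocol as 10 mM, and the protocol gives control cultures methanol, the carrier. No label used here states when that was done for the 0 minute cultures, so an effect of ABA and an effect of time after an addition cannot be told apart.

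Protonema is the filamentous juvenile stage of the moss. ABA is the plant hormone of drought and osmotic stress, and in Physcomitrium it raises tolerance of drying, salt and freezing. The hormone binds a soluble receptor that blocks a protein phosphatase, which frees protein kinases to activate transcription factors. A transcript level in sequenced mRNA is the balance of synthesis and decay at the time of sampling, so a short-lived transcript can fall and return within an hour. The deposited files carry gene IDs without names, and RefSeq's list of 27567 moss genes (assembly ASM5946719v1) matched 0 of the 32926 IDs. The genes are therefore described by ID, level and timing, without functions, positions or sequences.

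Between 12450250 and 17822775 reads were counted in genes per library, and TMM factors ran from 0.793 to 1.17. Replicates correlated across the tested genes with r of 0.994 at 0, 0.995 at 30 and 0.989 at 60 minutes. They differed beyond counting noise most at 60 minutes, where chi-square per degree of freedom was 16.0, against 3.39 at 30 and 7.15 at 0 minutes. With 2 libraries per time, an SD measures only the spread between these cultures. A p-value draws on a spread estimated over all 6 libraries and all tested genes. A comparison of 30 with 0 minutes therefore also reflects the 60 minute libraries.

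The dipping genes were mostly transcripts of low to middle level. At 0 minutes their means ran from 2.01 to 125.8 CPM with a median of 7.50. The median was 13.5 CPM over all tested genes and 16.1 CPM over those that met the limit of 2 CPM. Of the 121, 75 had 2 to under 10 CPM, 45 had 10 to under 50 CPM and 1 had more. Their summed share of gene counts was 0.161% ± 0.007 at 0 minutes (SD, n = 2). It was 0.0545% ± 0.0005 after 30 minutes of ABA and 0.121% ± 0.053 after 60 (SD, n = 2 each). The SD at 60 minutes came from a share of 0.158% in replicate 1 and 0.0830% in replicate 2. Reads at 30 minutes were few for part of the set. The sum over both 30 minute libraries had a median of 87 reads, lay under 20 for 13 genes and under 10 for 8 genes.

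The first comparison asks how far these transcripts had fallen after 30 minutes. The 30/0 ratio ran from 0.0224 to 0.599 with a median of 0.395. It was under 0.33 for 48 genes, 0.33 to 0.5 for 42 and above 0.5 for 31. Relative to each gene's own 0 minute mean, the median level was 0.380 in replicate 1 and 0.382 in replicate 2 at 30 minutes. The rule used both of these libraries, so the likeness of the medians describes the set and supports nothing. Of the 121 genes, 105 (86.8%) were called lower at 30 than at 0 minutes, a call being a Benjamini-Hochberg adjusted p below 0.05 by edgeR's quasi-likelihood method, against 16.8% of all tested genes. The set was chosen on this difference, so the count describes it and supports nothing.

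**Figure D1:**
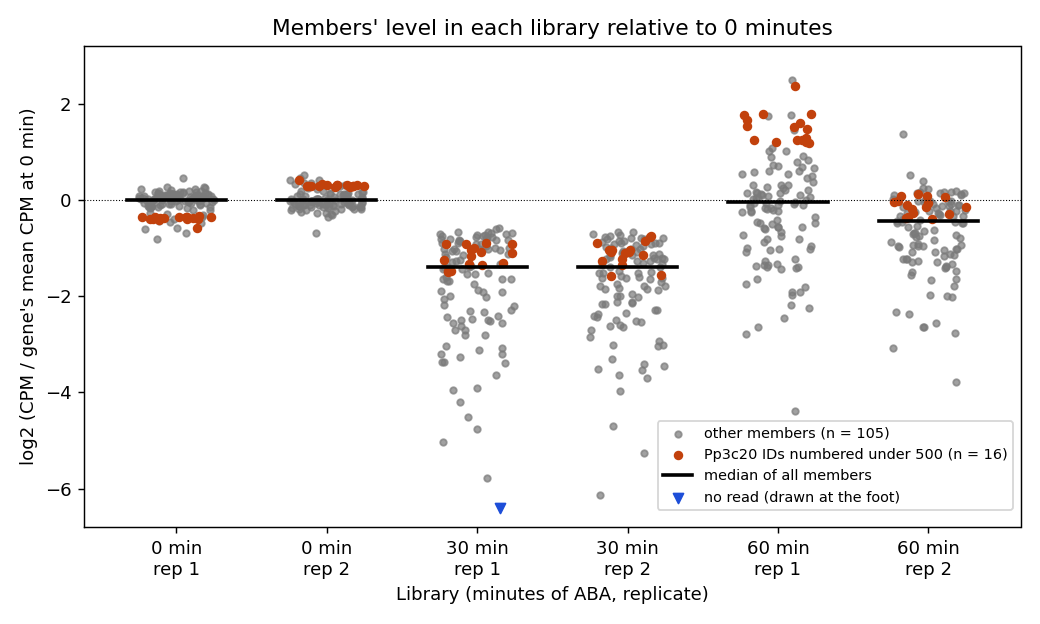
Each point is 1 of the 121 dipping genes in 1 library, as log2 of its CPM over its own mean at 0 minutes; orange points are 16 neighbouring IDs described further on, bars are medians over all 121, and a triangle marks a library without a read. The medians are alike in the 30 minute libraries, both of which the rule used (0.380 and 0.382 of the 0 minute level). They are unlike at 60 minutes (0.970 in replicate 1 and 0.738 in replicate 2).

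Pp3c5_6300 was the most abundant of the dipping genes. It had 125.8 and 125.7 CPM at 0 minutes, 39.0 and 44.8 CPM at 30 minutes, and 134.9 and 113.7 CPM at 60 minutes. Its level at 30 minutes was 3.00-fold lower than at 0 minutes, and the 60 minute libraries lay on both sides of the 0 minute ones. The 60 minute mean, 124.3 ± 15 CPM, stood against 125.8 ± 0.08 CPM at 0 minutes (SD, n = 2), a log2 fold change of -0.02 (SE 0.12) with an adjusted p of 0.914 in edgeR's test. The second most abundant, Pp3c11_21020, had 41.4 and 50.1 CPM at 0 minutes, 27.8 and 24.5 CPM at 30 minutes, and 69.1 and 50.6 CPM at 60 minutes. Its dip was shallower, 1.75-fold, and both 60 minute libraries were above both 0 minute libraries, replicate 2 by little. The log2 fold change of 60 over 0 minutes was 0.39 (SE 0.16), with an adjusted p of 0.0504 that missed the threshold.

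**Figure D2:**
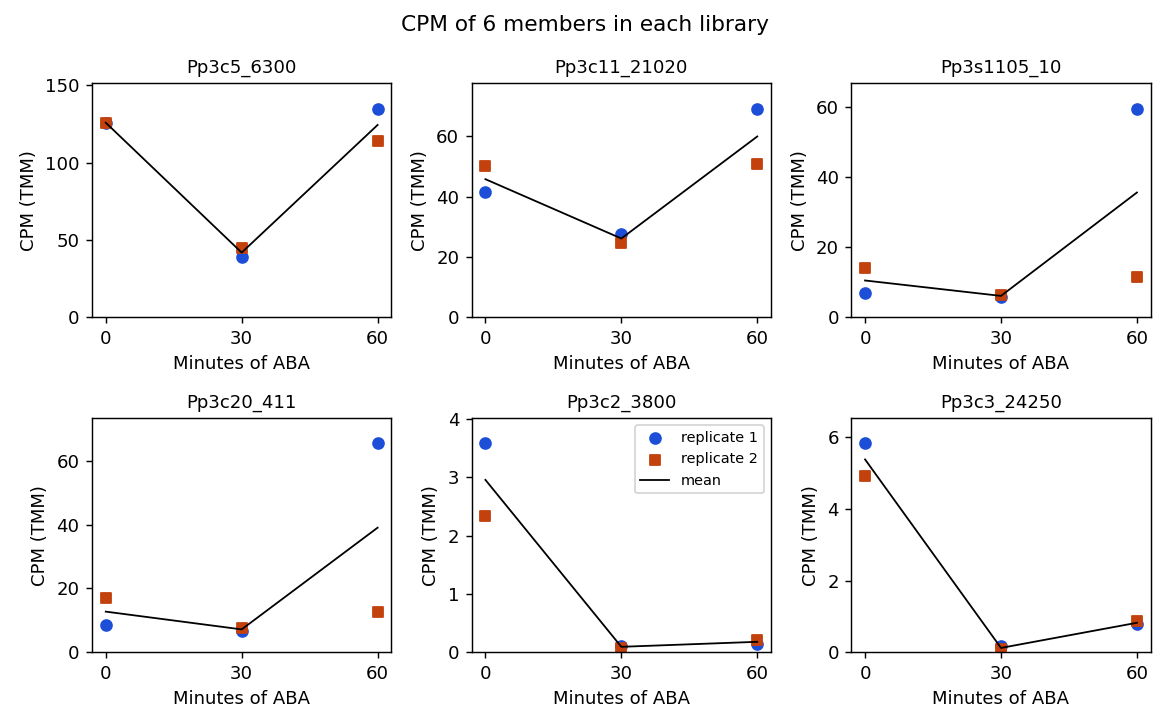
CPM of the 6 genes named by rule in each of the 6 libraries against minutes of ABA, with replicate 1 as circles, replicate 2 as squares and lines through the means; each panel has its own linear axis from 0. Pp3c5_6300 and Pp3c11_21020 returned in both 60 minute libraries, Pp3s1105_10 and Pp3c20_411 were high in replicate 1 alone, and Pp3c2_3800 and Pp3c3_24250 were still far below their 0 minute level at 60 minutes.

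The second comparison asks how much came back between 30 and 60 minutes. The 60/30 ratio ran from 1.68 to 11.1 with a median of 2.30. Of the CPM lost by 30 minutes, a median of 80.8% had been regained by 60 minutes. That median was 70.9% over the 105 genes outside a run of 16 IDs described further on. The highest 60/30 ratio, in Pp3c20_19090 (singled out after its values were seen), was 11.1 and rested on 0 and 4 reads in the 30 minute libraries. The return varied widely among the genes. A return of 100% or more was measured for 46 genes, 50 to under 100% for 36, 25 to under 50% for 21 and under 25% for 18. The 46 include all 16 IDs of the run, whose 60/0 ratios of mean CPM were at least 1.59. In replicate 2 at 60 minutes only 4 of those 16 exceeded their 0 minute mean. Of the 121, 104 (86.0%) were called higher at 60 than at 30 minutes, against 17.4% of all tested genes. In all, 89 (73.6%) were called in both intervals, against 1.35% of all tested genes. The genes were chosen on these differences too. Of the others, 16 were called in the first interval alone, 15 in the second alone and 1 in neither. Fewer of the 121 were called in both intervals without replicate 1 at 30 minutes. The share of all tested genes called in that fit is not given here.

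The libraries at 60 minutes did not show the same return. In replicate 1 the median gene stood at 0.970 of its 0 minute mean, and in replicate 2 at 0.738. Replicate 1 exceeded replicate 2 for 97 of the 121 genes (80.2%), against 49.1% of all tested genes. It did so at least 2-fold for 29 (24.0%), against 2.89% of all tested genes. A majority with replicate 1 higher was not limited to the dipping genes. Among 409 genes that fell by 30 minutes and then settled, described further on, replicate 1 was higher for 288 (70.4%), at least 2-fold for 27. Among 97 genes that peaked at 30 minutes, replicate 1 was higher for 36 (37.1%). Over all tested genes, 547 were at least 2-fold higher in replicate 1 and 296 in replicate 2. The rule used the mean of both 60 minute libraries, so a gene could enter through 1 high library, and these counts are a description.

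The 2 steepest returns among genes of at least 10 CPM at 0 minutes rested on replicate 1 at 60 minutes. Pp3s1105_10 had 7.07 and 14.1 CPM at 0 minutes, 5.96 and 6.37 CPM at 30 minutes, and 59.7 and 11.7 CPM at 60 minutes. Pp3c20_411 had 8.50 and 16.9 CPM at 0 minutes, 6.78 and 7.52 CPM at 30 minutes, and 65.4 and 12.6 CPM at 60 minutes. In both genes replicate 1 was high at 60 minutes and replicate 2 lay between the 0 minute libraries. Their 60/30 ratios of 5.79 and 5.45 therefore average libraries that differed 5.10-fold and 5.21-fold. By contrast, Pp3c17_10170, singled out after its values were seen, rose in both libraries. It had 8.31 and 6.82 CPM at 0 minutes, 3.17 and 3.53 CPM at 30 minutes, and 20.8 and 19.6 CPM at 60 minutes.

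The third comparison, 60 with 0 minutes, is the difference that the rule did not set directly, although it used the levels of both times against 30 minutes. It asks whether the genes had returned to their starting level. Few genes ended higher: 9 of the 121 (7.44%) were called higher at 60 than at 0 minutes, against 28.4% of all tested genes. The share called lower was near that of all tested genes, with 41 of the 121 (33.9%), against 29.5%. The other 71 had no call, which does not show that they were back at the 0 minute level. Both 60 minute libraries lay below both 0 minute libraries for 50 genes (41.3%), against 40.5% of all tested genes, and above them for 9 (7.44%), against 37.3%. The median 60/0 ratio was 0.893, against 0.974 over all tested genes. The split of 9 higher and 41 lower depended on scaling. It was 16 and 40 with RLE factors (the median-ratio scaling of DESeq2), 2 and 61 with upper-quartile factors and 1 and 64 with total counts alone. The scaling moved all tested genes too. Their median log2 ratio of 60 over 0 minutes was -0.04 with TMM and -0.01 with RLE factors. Upper-quartile factors gave -0.39 and total counts -0.50. The share of all genes called under the other scalings is not given here. Whether the split moved more in the dipping genes than in all genes was not tested.

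The 41 genes called lower are described by the depth of their dip. All 41 had both 60 minute libraries below both 0 minute libraries, and their 60/0 ratio ran from 0.0605 to 0.690 with a median of 0.433. Of them, 37 were among the 48 genes with a 30/0 ratio under 0.33. The 42 genes with a 30/0 ratio of 0.33 to 0.5 held the other 4, and the 31 shallowest held none. The dip and the end point share the 0 minute libraries, and the limit on the 60 minute level kept the 60/0 ratio of shallow dips high, so the rule set this ordering in part and it is only a description. The deepest group had a median 60/0 ratio of 0.459, the middle group 0.999 and the shallowest 1.22.

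**Figure D3:**
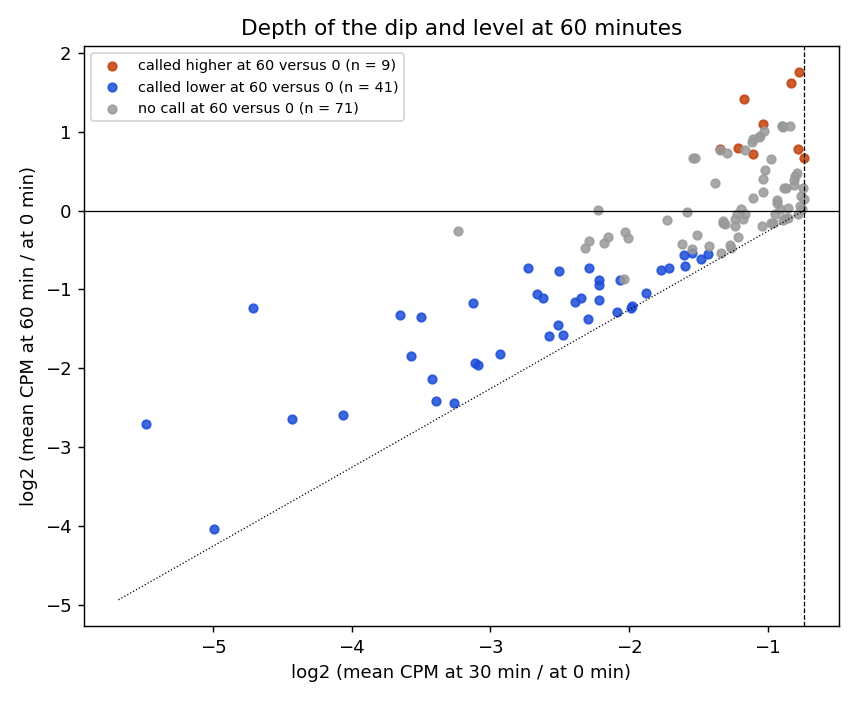
Each point is 1 of the 121 genes, with log2 of the 30/0 minute ratio of mean CPM on the horizontal axis and log2 of the 60/0 ratio on the vertical axis, coloured by the call at 60 versus 0 minutes. The dashed and dotted lines are the 30/0 and 60/30 limits of the rule, so the empty area beyond them was fixed by selection; the 41 genes called lower lie mostly to the left and the 9 called higher to the right.

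The lowest end points rested on few reads. Pp3c2_3800 had 3.58 and 2.33 CPM at 0 minutes, 0.109 and 0.0768 CPM at 30 minutes, and 0.142 and 0.215 CPM at 60 minutes. These values stand for 118 reads at 0 minutes, 3 at 30 minutes and 5 at 60 minutes, summed over replicates. At 60 minutes it was 16.8-fold lower than at 0 minutes by these sums, with an exact 95% counting interval from 6.99 to 52.6. Its 60/30 ratio of summed reads was 1.86, with an interval from 0.363 to 12 that includes a ratio of 1. Pp3c3_24250 had 5.83 and 4.92 CPM at 0 minutes, 0.164 and 0.0768 CPM at 30 minutes, and 0.781 and 0.862 CPM at 60 minutes. With 4 reads at 30 minutes and 23 at 60 minutes its return was 6.43-fold (exact 95% counting interval 2.20 to 25.6), and at 60 minutes it was still 6.58-fold lower than at 0 minutes (4.27 to 10.6). The log2 fold changes at 60 versus 0 minutes were -4.00 (SE 0.46) for Pp3c2_3800 and -2.70 (SE 0.27) for Pp3c3_24250, and edgeR gave them adjusted p-values of 1.72e-05 and 4.81e-06. The intervals cover counting error only.

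Of the 9 genes called higher at 60 than at 0 minutes, 4 had both 60 minute libraries above both 0 minute libraries. Pp3c17_10170 was the clearest of these, with a mean of 20.2 ± 0.84 CPM after 60 minutes, against 7.56 ± 1.05 CPM before ABA (SD, n = 2). Its log2 fold change was 1.41 (SE 0.15), with an adjusted p of 9.47e-06 in edgeR's test. The highest fitted values belonged to Pp3s1105_10, at 1.77 (SE 0.55, adjusted p = 0.0165), and Pp3c20_411, at 1.62 (SE 0.55, adjusted p = 0.0248). Neither was separated from 0 minutes, since replicate 2 of each lay between the 0 minute libraries. Without replicate 1 at 60 minutes their log2 fold changes were 0.18 and 0.02, and without replicate 1 at 0 minutes 1.34 and 1.20, with no call in either case. Fewer of the 121 genes were called higher without replicate 1 at 60 minutes, and likewise without replicate 1 at 0 minutes. More were called higher without replicate 2 at 60 minutes. The share of all tested genes called in those fits is not given here. Whether these shifts were particular to the 121 genes was therefore not tested.

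Of the 121 IDs, 16 shared a prefix and a narrow range of numbers. They began with Pp3c20 and were numbered from 11 to 481, a run noticed after the values were seen. Of 35 Pp3c20 IDs numbered under 500, 10 had no read in any library, 24 were tested and 16 of these were dipping genes, against 0.639% of all tested genes. Outside the run, 8 dipping genes had another dipping gene directly before or after them among the tested IDs of their prefix. Pp3c7_6850 and Pp3c7_6890 were such a pair. Pp3c7_6850 had 30.7 and 29.7 CPM at 0 minutes, 4.32 and 5.22 CPM at 30 minutes, and 11.6 and 17.5 CPM at 60 minutes. Pp3c7_6890 had 34.6 and 35.0 CPM, 5.69 and 5.61 CPM, and 13.7 and 18.5 CPM at those times.

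The 16 IDs of the run moved alike from library to library. Their summed level was 126 and 204 CPM at 0 minutes, 72.3 and 76.4 CPM at 30 minutes, and 479 and 153 CPM at 60 minutes. In each of the 16, replicate 1 was above replicate 2 at 60 minutes, by 2.17-fold to 5.21-fold, and replicate 2 was above replicate 1 at 0 minutes, by 1.52-fold to 1.99-fold. At 60 minutes, replicate 1 stood at 2.27 to 5.15 times the 0 minute mean and replicate 2 at 0.758 to 1.10 times. Replicate 1 at 60 minutes was above both 0 minute libraries in all 16, and replicate 2 in 0 of the 16, although it exceeded the 0 minute mean in 4. The 30/0 ratios of the 16 ran from 0.345 to 0.562. In the fit of all 6 libraries, 7 of the 16 (43.8%) were called lower at 30 minutes, against 16.8% of all tested genes. In a fit of the 0 and 30 minute libraries alone all 121 dipping genes were called lower. The share of all genes called in that fit is not given here. The rule used this difference, so the counts are a description.

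Several IDs of the run had nearly the same counts. In 7 pairs, made up of 11 IDs, the counts differed by at most 10% in each of the 6 libraries, and no pair among the other 105 genes did. Pp3c20_449 and Pp3c20_481 had 206 and 205 reads in replicate 1 and 285 and 282 in replicate 2 at 0 minutes. At 30 minutes both had 82 reads in replicate 1 and 55 in replicate 2, and at 60 minutes they had 407 and 404 in replicate 1 and 158 and 157 in replicate 2. Whether reads were shared between near-identical copies or overlapping annotations was not tested, and the strand setting of the counting is unknown here. The levels of the single IDs are therefore uncertain, and the 16 should not be read as 16 independent genes.

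**Figure D4:**
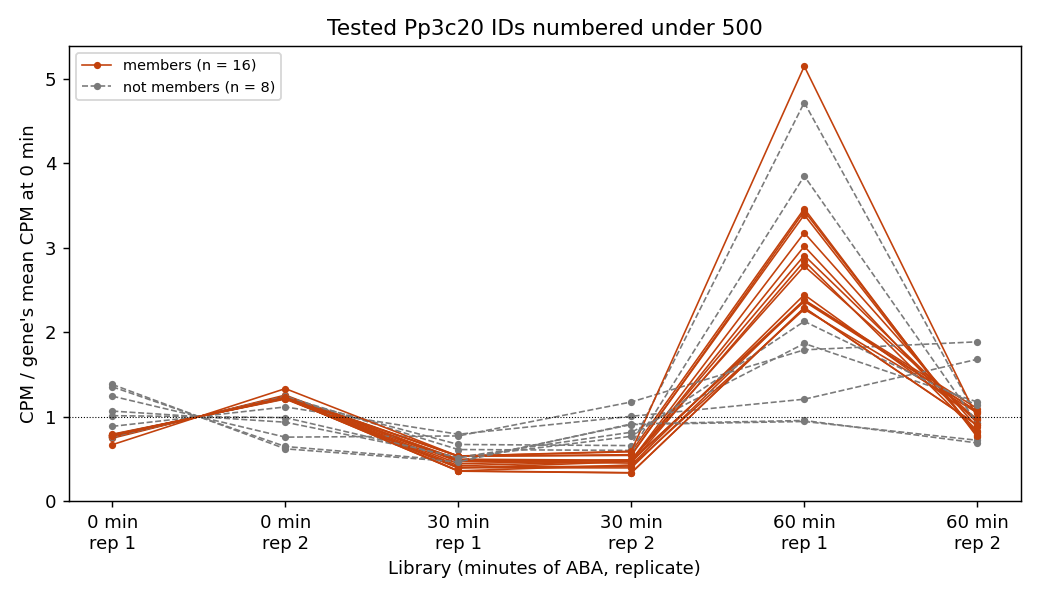
CPM of the 24 tested Pp3c20 IDs numbered under 500, each divided by its own 0 minute mean, in the 6 libraries; solid orange lines are the 16 dipping genes, dashed grey lines the other 8, and lines join libraries only to follow an ID. The orange lines run together, low in both 30 minute libraries and at 2.27 to 5.15 in replicate 1 at 60 minutes but at 0.758 to 1.10 in replicate 2. Pp3c20_295 and Pp3c20_351 (grey, singled out after their values were seen) were 4.73-fold and 4.17-fold higher in replicate 1 at 60 minutes than in replicate 2. That ratio was 0.719 to 1.88 in the other grey lines.

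Without the run, 105 genes remained, and the description of the set changed little except at 60 minutes. Their median 30/0 ratio was 0.352 and their median 60/0 ratio 0.794, against 0.464 and 1.85 for the 16 of the run. Of the 105, 98 were called lower at 30 minutes, 88 higher at 60 than at 30 minutes and 82 in both intervals. Against 0 minutes, 41 of the 105 were called lower at 60 minutes and 6 higher. Replicate 1 exceeded replicate 2 at 60 minutes for 81 of the 105 (77.1%), at least 2-fold for 13, so the difference between the 60 minute libraries was not limited to the run. The median ratio over the 105 was 1.30. It was largest in Pp3s1105_10 (5.10), Pp3s959_10 (4.31) and Pp3c19_9270 (3.60), singled out after their values were seen. At 0 minutes replicate 2 over replicate 1 was 1.99, 1.62 and 1.78 in these genes, within the range of the run, against a median of 0.971 over the 105.

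The dip and return were also read in libraries that had no part in the choice. Genes were chosen on 1 library per time, by the ratios and the level of the rule, and read in the other library of each time. Replicate 1 of each time chose 158 genes. In the replicate 2 libraries 134 of them (84.8%) were lowest at 30 minutes, against 21.2% of all genes with at least 2 CPM in the choosing 0 minute library. The median 30/0 ratio was 0.375 there, against 0.368 in the choosing libraries, and the median 60/30 ratio was 1.58, against 2.23. Both limits of the rule were met by 62 (39.2%), against 0.775% of all genes.

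Replicate 2 of each time chose 128 genes, of which 113 (88.3%) were lowest at 30 minutes in the replicate 1 libraries. Here the median 30/0 ratio was 0.501 in the libraries read, against 0.385 in those that chose, and the median 60/30 ratio was 2.10, against 2.09. Which of the dip and the return was smaller in the libraries read therefore depended on the choice. Over the 8 ways of taking 1 library per time, the share lowest at 30 minutes ran from 53.3% to 93.8%, against 19.9% to 24.8% of all genes. It was 60.3% and 53.3% where replicate 2 at 30 minutes and replicate 1 at 60 minutes chose together. Those choices took 272 and 364 genes, against 112 to 187 genes in the other 6. The median 30/0 ratio read ran from 0.375 to 0.681 over the 8 ways, against 0.329 to 0.444 in the libraries that chose. The median 60/30 ratio read was 1.09 and 1.03 for them, and 1.51 to 2.22 for the others. Between 60 and 65 genes met both limits in the libraries read. A choice and its reverse both count genes that met the ratio limits in the libraries that chose and in those read. Only the limit on level differs between them, so their counts are alike by construction. The 8 ways share libraries, and the genes of 1 choice are read in the same 3 libraries, so neither are independent. A gene that fell by 30 minutes and then stayed flat can also be lowest at 30 minutes. How often such genes were lowest there was not counted, so the share of all genes is no yardstick for the return. The sets chosen in these ways are not the dipping set, and their overlap with it is not given here.

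**Figure D5:**
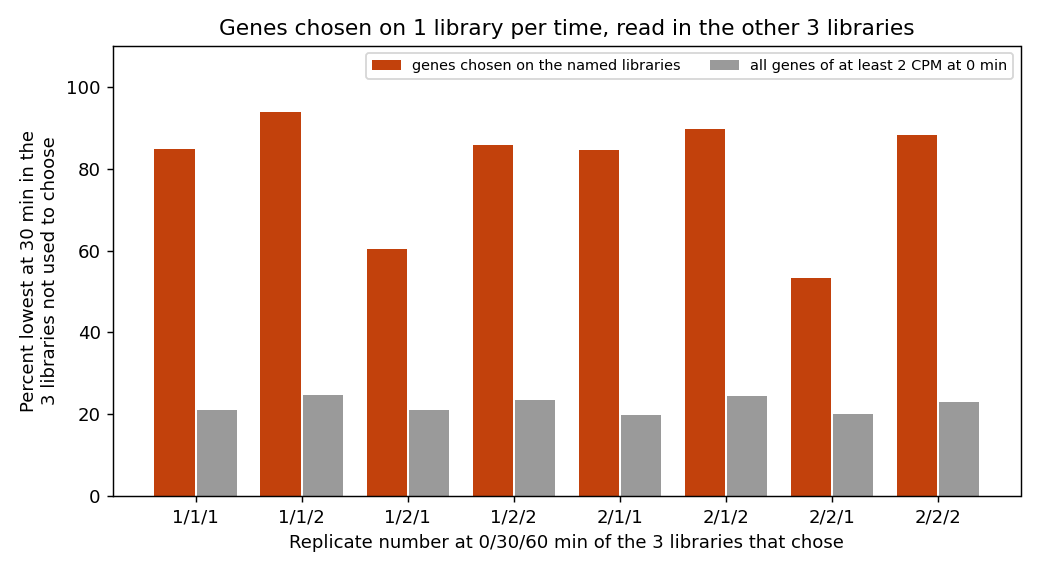
Percent of genes that were lowest at 30 minutes in the 3 libraries not used to choose them (orange), beside the same percent over all genes with at least 2 CPM in the choosing 0 minute library (grey), for the 8 ways of taking 1 library per time; labels give the replicate number that chose at 0, 30 and 60 minutes. The orange bars run from 53.3% to 93.8% and the grey bars from 19.9% to 24.8%. The grey bars do not show how often genes that fell and then stayed flat would be lowest at 30 minutes.

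The opposite pattern was counted by the same limits turned round, and 97 genes peaked at 30 minutes and fell back. The balance between the 121 dipping and the 97 peaking genes depended on scaling. RLE factors gave 128 and 94, upper-quartile factors 130 and 96, but total counts alone 83 and 172. Total counts alone shifted the median log2 ratio of all tested genes to -0.16 for 30 over 0 minutes and -0.31 for 60 over 30 minutes, against -0.02 and 0.01 with TMM. Of the 121 dipping genes, 73 also met the rule with total counts alone, 103 with upper-quartile factors and 119 with RLE factors. A further 409 genes met the 30/0 limit and were settled at 60 minutes, with the 60/30 ratio and its inverse both at least 0.8 and every treated library below both 0 minute libraries. Their median 30/0 ratio was 0.493, against 0.395 for the dipping genes, and both values were set in part by the rules.

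The limits of the rule cut through a continuous range. The genes just inside and just outside had 2.01 and 1.96 CPM at 0 minutes, 30/0 ratios of 0.599 and 0.602, and 60/30 ratios of 1.675 and 1.665. There were 17 genes with a 30/0 ratio above 0.55, 17 with a 60/30 ratio under 1.8 and 7 under 2.5 CPM at 0 minutes. Another 12 genes met the limits on means but had a 30 minute library that was not below the other 4. With 1 library left out the rule gave 96 genes (without replicate 1 at 60 minutes), 192 (without replicate 2 at 60 minutes) or 196 (without replicate 1 at 30 minutes), and 106 to 134 in the other 3 cases.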

How the data were processed

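The authors deposited 1 table of whole-number read counts per gene for each of the 6 libraries, made with a stranded mRNA kit per the labels' protocols. Cutadapt, TopHat, HTSeq and DESeq2 are listed in the submitters' processing notes; the sources used here give no version, setting, genome build or annotation. The 5 summary rows of each table, which name no gene, were left out; reads in no gene were 1.66% to 2.14% of a library.

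CPM is 1e+06 times the count over the product of the library's gene total and its TMM factor, computed after edgeR's filterByExpr (minimum count 10, minimum total 15). Tests were quasi-likelihood F tests from edgeR 4.0.16 under R 4.3.3, in 1 model of the 3 times fitted to all 6 libraries and 18949 genes, with Benjamini-Hochberg adjustment over all of them and calls below 0.05. A standard error is the log2 fold change over the square root of F. The code was tested on simulated data. Alternatives included DESeq2 1.42.0, limma-voom (limma 3.58.1), other scalings and filters, and each library left out.

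The members, the rule and the groups by level, depth and end point were chosen with earlier results of these data known. Genes were named by rule: the 2 most abundant members, the 2 with the highest 60/30 ratio among those of at least 10 CPM at 0 minutes, and the 2 highest and 2 lowest of those called at 60 versus 0 minutes. Others are marked as chosen after their values were seen. The Pp3c7 pair and the near-identical IDs were also chosen so. No marker or function list could be applied, since no ID matched a name.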

Additional observations from a re-analysis of the deposited data

Results flagged for a closer look

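In 104 of the 121 genes the departure from the 0 minute level changed between 30 and 60 minutes, by edgeR's test of 60 against 30 minutes. The genes were selected for that difference, so the count is a description. The log2 fold changes of 60 over 30 minutes for the named genes called there were 1.57 for Pp3c5_6300, 1.19 for Pp3c11_21020, 2.54 for Pp3s1105_10, 2.45 for Pp3c20_411 and 2.62 for Pp3c3_24250. For Pp3s1105_10 and Pp3c20_411 the values were 0.93 and 0.83 without replicate 1 at 60 minutes.

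Reads outside every annotated gene are used in no comparison here. They made up 1.671% and 1.662% of the 0 minute libraries, 1.987% and 2.036% of the 30 minute libraries and 2.137% and 1.726% of the 60 minute libraries, so all 4 treated libraries lay above both untreated ones. Groups of 2 libraries are too small for a check on single outlying libraries.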

How the results depend on the processing

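Replicates share numbers between times, but the labels do not tie a number to a culture or day. With the replicate block 108 genes were called lower at 30 minutes, 105 higher at 60 than at 30 minutes and 93 in both intervals. At 60 against 0 minutes 8 were called higher and 41 lower. The share of all tested genes called with the block is not given here. Replicate deviations correlated across genes with r of -0.06 (30 with 0 minutes), 0.26 (60 with 30) and 0.02 (60 with 0).

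The count called higher at 60 versus 0 minutes moved most. It was 16 with RLE factors, 1 with total counts alone, 2 with upper-quartile factors, 28 without the filter on low counts and 4 with limma-voom. With the set chosen again under those scalings, an alternative added after seeing the data, it was 15, 2 and 5. Total counts alone also gave 66 called higher at 60 than at 30 minutes, 55 in both intervals and 64 lower at 60 than at 0 minutes. With the set chosen again on total counts, 64 were called lower at 30 minutes, 66 higher at 60 than at 30 minutes and 52 in both. The set held 70 genes with ratio limits of 0.5 and 2 and 204 with limits of 0.67 and 1.5, and the set peaking at 30 minutes 47 and 196. That set held 172 with total counts alone. The share of gene counts at 0 minutes was 0.169% with members chosen by RLE factors, 0.120% by total counts and 0.195% by upper-quartile factors. Dipping genes with another directly before or after them in ID order numbered 21, or 8 without the Pp3c20 run, which was left out only after seeing the data. The share lowest at 30 minutes in libraries not used to choose was 84.8%, and 93.8%, 60.3% and 53.3% for the 3 choices farthest from it. The share of all tested genes called under these alternatives is not given here, and the cause of these shifts was not tested.

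Leaving out 1 library gave 80 to 121 genes called lower at 30 minutes, 77 to 103 higher at 60 than at 30 minutes, 55 to 103 in both intervals, and 2 to 34 higher and 29 to 49 lower at 60 than at 0 minutes. It gave 96 to 196 dipping and 95 to 113 peaking genes. The share of all tested genes called with 1 library left out is not given here. Pp3s1105_10 and Pp3c20_411 lost their calls at 60 versus 0 minutes with total counts alone, DESeq2 and limma-voom, and Pp3c20_411 also with upper-quartile factors. Depth limits the 13 genes with under 20 reads at 30 minutes.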
